A study of Mus musculus with 4 samples.

Results

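The G1 cyclins, the kinases they switch on and the inhibitors that hold these kinases back were followed here as 10 genes: the D cyclins *Ccnd1*, *Ccnd2* and *Ccnd3*, the E cyclins *Ccne1* and *Ccne2*, the kinases *Cdk2*, *Cdk4* and *Cdk6*, and the inhibitors *Cdkn1a* and *Cdkn1b*. They were chosen by name, with earlier results of these data known, and all 10 were found among the 24346 genes of the tables. The RNA came from *in vitro* MDSCs (myeloid-derived suppressor cells), which are immature myeloid cells grown from BM cells of unmodified female C57BL/6J mice aged 6 to 8 weeks. Every culture received 40 ng/ml of GM-CSF for 4 days, which 2 cultures received alone (Control) and 2 together with 5 ng/ml of G-CSF (G-CSF). No sort of the cells before RNA extraction is described for these libraries, and the number of mice behind a culture is not given, so that p-values measure only the spread between these 4 samples.

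A cell leaves G1 when D cyclins bind Cdk4 or Cdk6, and E cyclins bind Cdk2, and these complexes phosphorylate the retinoblastoma protein. E2F factors are then free to switch on the genes of DNA synthesis. The products of *Cdkn1a* and *Cdkn1b* bind the cyclin and kinase complexes and restrain Cdk2. In the neutrophil lineage, precursors divide and their descendants leave the cell cycle as they mature, and cyclin D3 is known to be needed for the growth of this lineage under G-CSF.

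Levels are given in FPKM, which is a fragment count divided by the transcript length and by the depth of the library, a scale on which genes of different length can be set side by side. The 4 tables summed to between 641609.7 and 670353.9 FPKM and stood for an estimated 12.4 to 15.6 M mapped reads. Among the markers of the labelled cells, *Itgam* (CD11b) stood at 520 and 515 FPKM in the Control libraries, against 395 and 416 FPKM in the G-CSF libraries. *Ly6c2* stood between 999.6 and 1148 FPKM, and *Ly6g* was not analysed here. The labels' extraction text speaks of liver tissue, but the liver markers *Alb*, *Apoa1* and *Ttr* were listed at 0 in every library, and *Serpina1a* stood at 0.169 FPKM or less.

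With G-CSF, *Cdk4* rose, and *Ccnd1* and *Cdkn1a* fell. The largest of these differences was that of *Ccnd1*, whose mean with G-CSF was 0.637 of the Control mean. The corresponding ratios were 1.31 for *Cdk4* and 0.822 for *Cdkn1a*. The other 7 genes did not pass an adjusted p of 0.05 (limma on log2(FPKM + 0.1) over the 11717 genes with a mean of at least 0.5 FPKM, Benjamini-Hochberg adjustment), and none of the 10 passed a fold change of 2. Of all genes tested, 20.2% passed the adjusted p and 1.18% passed it with a fold change over 2, so that 3 of 10 genes (30.0%) is not far from the background. The groups did not overlap in 9 of the 10 genes, and in 66.3% of all genes tested. G-CSF lay above Control in 5 of the 10 (34.0% of all genes) and below it in 4 (32.2% of all genes).

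**Figure D1:**
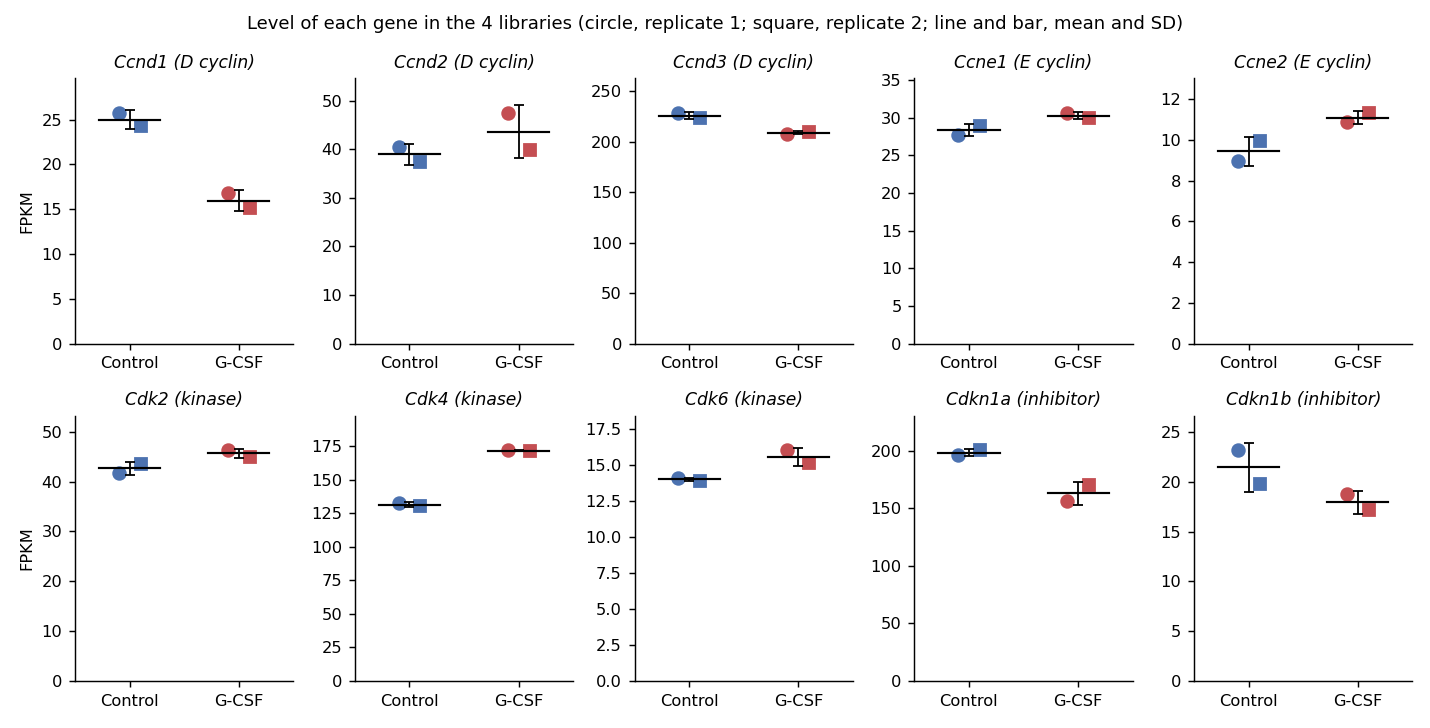
FPKM of each of the 10 genes in the 2 Control (blue) and 2 G-CSF (red) libraries, each panel starting at 0, with replicate 1 as a circle, replicate 2 as a square, and the mean and SD (n = 2) in black. *Ccnd1* and *Cdkn1a* lie lower and *Cdk4* lies higher with G-CSF, and *Ccnd2* is the gene in which the groups overlap.

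The levels of the 10 genes were spread over more than an order of magnitude. In Control, the order from high to low was *Ccnd3*, *Cdkn1a*, *Cdk4*, *Cdk2*, *Ccnd2*, *Ccne1*, *Ccnd1*, *Cdkn1b*, *Cdk6* and *Ccne2*, from 226 FPKM for *Ccnd3* to 9.44 FPKM for *Ccne2*, and no pair of neighbours in this order overlapped. With G-CSF, *Cdk4* stood above *Cdkn1a* and *Cdkn1b* stood above *Ccnd1*, while *Cdk2* overlapped with *Ccnd2* and *Ccnd1* with *Cdk6*. Over all 4 libraries, the mean levels of *Ccnd3*, *Cdkn1a* and *Cdk4* were at the percentiles 96.51, 95.86 and 95.02 of the genes tested, and *Ccne2*, at 44.1, was the one of the 10 below the median. The estimated number of reads per library behind these values ran from 335 for *Ccne2* in Control replicate 1 to 6234 for *Ccnd3* in G-CSF replicate 2.

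Among the D cyclins, which pair with Cdk4 and Cdk6, *Ccnd1* fell while the other two did not pass the test. *Ccnd1* lies on the minus strand of chromosome 7 of GRCm38 (144929931 to 144939925). It stood at 25.7 and 24.3 FPKM in the Control libraries, against 16.8 and 15.1 FPKM in the G-CSF libraries. Both G-CSF libraries lay below both Control libraries. The change amounted to -0.65 on the log2 scale, with a standard error of 0.0732 and an adjusted p of 0.0134 (limma).

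*Ccnd2* (chromosome 6, 127125162 to 127152193) stood at 40.5 and 37.4 FPKM in the Control libraries, against 47.5 and 39.8 FPKM in the G-CSF libraries. Its groups overlapped, and its G-CSF libraries had the widest spread of the 10 genes (CV 12.5%). The log2 fold change of *Ccnd2* was 0.16 (95% interval -0.09 to 0.40, adjusted p = 0.293 from limma), and it was 0.03 without G-CSF replicate 1 and 0.28 without G-CSF replicate 2. *Ccnd3* (chromosome 17, 47505051 to 47599691), the most abundant of the 10 transcripts per length, stood at 228 and 223 FPKM in the Control libraries, against 208 and 210 FPKM in the G-CSF libraries. Both G-CSF values of *Ccnd3* were lower, but the log2 fold change of -0.11 (95% interval -0.21 to -0.01) had an adjusted p of 0.1002 from limma.

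In the make-up of the D cyclins, the groups did not overlap for the 2 less abundant genes. *Ccnd1* made up 8.73% and 8.52% of the summed D cyclin FPKM in the Control libraries, against 6.16% and 5.70% in the G-CSF libraries. For *Ccnd2* the share was 13.4% ± 0.431 in Control and 16.2% ± 1.73 with G-CSF (SD, n = 2 each), a difference of 2.79 percentage points that was 1.56 without G-CSF replicate 1 and 4.01 without G-CSF replicate 2. *Ccnd3* held between 76.4% and 79.3% of the sum in every library, and its groups overlapped. The ratio of *Ccnd1* to *Ccnd2* was 0.642 ± 0.00915 in Control and 0.367 ± 0.0189 with G-CSF (SD, n = 2 each). An exact permutation test over 2 against 2 libraries (two-sided) gave p = 0.333 for this ratio and for the shares of *Ccnd1* and *Ccnd2*, the smallest it can give, and 1.0 for the share of *Ccnd3*.

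Of the kinases, *Cdk4* rose, and *Cdk2* and *Cdk6* did not pass the test. *Cdk4* lies on the plus strand of chromosome 10 (127063534 to 127067920). Its promoter is shown because *Cdk4* was the gene of the 10 that rose, and because it holds 4 E-boxes, the site CACGTG that MYC and related factors can bind. The sequence is the stretch just before the annotated start of the gene, chr10:127063285-127063533, plus strand, from RefSeq's table for GRCm38.p6, with each CACGTG in capitals.

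Cdk4 promoter: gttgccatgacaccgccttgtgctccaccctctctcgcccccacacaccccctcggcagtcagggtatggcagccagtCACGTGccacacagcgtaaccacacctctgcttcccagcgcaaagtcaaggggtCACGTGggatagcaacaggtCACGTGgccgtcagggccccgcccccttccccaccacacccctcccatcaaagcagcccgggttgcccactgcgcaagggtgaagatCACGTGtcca

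The 4 matches begin at positions -172, -118, -98 and -11, counted back from the RefSeq start site. Of the 32851 windows in the table, each reaching from 250 bases before a start site to 50 after it, 7.15% held at least 1 CACGTG and 0.0244% (8 windows) held 4 or more. Of the 10 genes, 7 had 9 windows there. *Ccnd1*, *Ccnd2* and *Ccne2* had none, so their promoters were not searched. *Cdk6* held 1 CACGTG, at position -220. A set of E2F-type sites, TTTCCCGC, TTTCGCGC, TTTGCCGC and TTTGGCGC, was searched on both strands, and *Cdk2* held 1 of them, at position -140, against 2.26% of all windows with at least 1. The STAT-type site TTCNNNGAA, which is the same on both strands, stood in 8.30% of all windows, and no match was found in the 9 windows. A match of letters is a description and does not show that a factor binds there.

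*Cdk4* stood at 133 and 130 FPKM in the Control libraries, against 171.9 and 171.6 FPKM in the G-CSF libraries. The libraries of each group were close together and the groups were far apart. The change amounted to 0.39 on the log2 scale, with a standard error of 0.0385 and an adjusted p of 0.0118 (limma), and *Cdk4* ranked 140 by p among the genes tested, before *Ccnd1* at 225 and *Cdkn1a* at 1328.

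*Cdk6* (chromosome 5, 3341485 to 3531008), the other partner of the D cyclins, stood at 14.1 and 13.9 FPKM in the Control libraries, against 16.04 and 15.16 FPKM in the G-CSF libraries, with a log2 fold change of 0.15 (95% interval -0.00076 to 0.31, adjusted p = 0.134 from limma). In a voom fit to the estimated reads, *Cdk6* passed with an adjusted p of 0.0368 (limma). *Cdk2* (chromosome 10, 128697939 to 128705031), the partner of the E cyclins, stood at 41.7 and 43.6 FPKM in the Control libraries, against 46.2 and 45.0 FPKM in the G-CSF libraries, with a log2 fold change of 0.10 (95% interval -0.03 to 0.22, adjusted p = 0.207 from limma). Both kinases lay higher in both G-CSF libraries. *Cdk4* held 69.4% to 70.4% of the summed FPKM of the kinases in Control and 73.4% to 74.1% with G-CSF.

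The E cyclins, which act with Cdk2 at the entry to S phase, lay slightly higher with G-CSF without passing the test. *Ccne1* (chromosome 7, 38097984 to 38107534) stood at 27.8 and 28.9 FPKM in the Control libraries, against 30.6 and 30.0 FPKM in the G-CSF libraries, with a log2 fold change of 0.10 (95% interval -0.03 to 0.22, adjusted p = 0.225 from limma). *Ccne2* (chromosome 4, 11191351 to 11204779) stood at 8.95 and 9.94 FPKM in the Control libraries, against 10.9 and 11.3 FPKM in the G-CSF libraries. The log2 fold change of *Ccne2* was 0.23 (95% interval 0.03 to 0.43, adjusted p = 0.0952 from limma). In both genes the G-CSF libraries were above the Control libraries, and *Ccne1* was the more abundant of the pair in every library.

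Of the inhibitors, *Cdkn1a*, which encodes the p53-induced inhibitor p21, fell. *Cdkn1a* (chromosome 17, 29090976 to 29100727) stood at 197 and 200.3 FPKM in the Control libraries, against 156 and 170.2 FPKM in the G-CSF libraries. Its G-CSF libraries were both lower and stood farther from each other than its Control libraries (CV 6.19% against 1.33%). The change of *Cdkn1a* amounted to -0.28 on the log2 scale, with a standard error of 0.0549 and an adjusted p of 0.0284 (limma). *Cdkn1b* (chromosome 6, 134920401 to 134925513), which encodes p27, stood at 23.2 and 19.8 FPKM in the Control libraries, against 18.8 and 17.2 FPKM in the G-CSF libraries. The groups of *Cdkn1b* did not overlap, but its Control libraries differed from each other (CV 11.3%), and the log2 fold change of -0.25 (95% interval -0.50 to -0.01) had an adjusted p of 0.125 from limma.

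**Figure D2:**
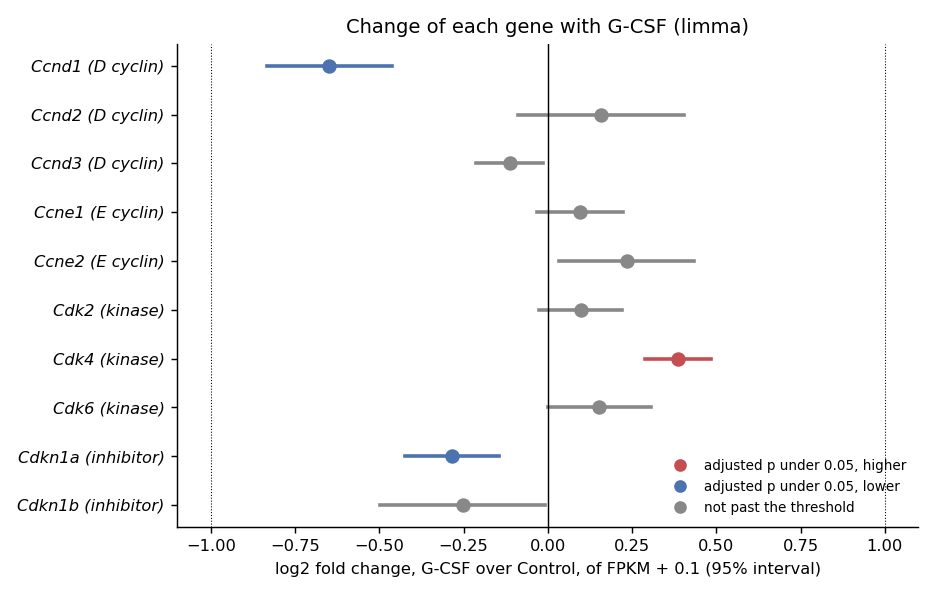
Log2 fold change (G-CSF over Control, of FPKM + 0.1) of each of the 10 genes from limma, with its 95% interval, in red where called higher, in blue where called lower and in grey where not past an adjusted p of 0.05. The dotted lines mark a fold change of 2 in either direction, and no interval reaches them.

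The 3 calls held under 9 of the 10 other settings of the model that kept all libraries, and were lost in limma without the mean-variance trend (adjusted p = 0.0613 for *Ccnd1* and *Cdk4* and 0.0891 for *Cdkn1a*). They were also lost when Control replicate 1, Control replicate 2, G-CSF replicate 1 or G-CSF replicate 2 was left out, which leaves 1 library in a group, with adjusted p-values of 0.0748 to 0.105 for *Ccnd1* and *Cdk4* and 0.0748 to 0.131 for *Cdkn1a* (limma). The fold changes stayed in the same direction: -0.72 to -0.57 for *Ccnd1*, 0.37 to 0.40 for *Cdk4* and -0.35 to -0.22 for *Cdkn1a* on the log2 scale.

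The balance of *Cdkn1a* and *Cdkn1b* against *Cdk2*, *Cdk4* and *Cdk6* transcripts stood on different sides of 1 in the groups. *Cdkn1a* stood above *Cdk4* in both Control libraries, with ratios of 1.48 and 1.54, and below it in both G-CSF libraries, with ratios of 0.907 and 0.992. In G-CSF replicate 2 the pair was nearly level. The summed FPKM of *Cdkn1a* and *Cdkn1b* was 219.9 ± 0.217 without and 181 ± 8.94 with G-CSF, and that of *Cdk2*, *Cdk4* and *Cdk6* was 188 ± 0.564 and 233 ± 1.68 (SD, n = 2 each). The ratio of the inhibitor sum to the kinase sum was 1.166 and 1.173 in the Control libraries, against 0.746 and 0.808 in the G-CSF libraries. The groups did not overlap in this ratio. The exact permutation test (two-sided) gave p = 0.333 for it, the smallest possible with 2 against 2 libraries. *Cdkn1a* made up 90.23% of the inhibitor sum in Control and 90.05% with G-CSF, and *Cdk4* 69.87% and 73.72% of the kinase sum. Both ratios thus largely restate the changes of *Cdkn1a* and *Cdk4* given above and are not a separate result. These are ratios of transcripts per length and do not measure protein or kinase activity. *Cdkn2c* and *Cdkn2d*, which encode inhibitors of Cdk4 and Cdk6, were not counted, with means of 9.31 and 44.3 FPKM under G-CSF. Whether the ratio lies below 1 with G-CSF depends on which inhibitors are counted.

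**Figure D3:**
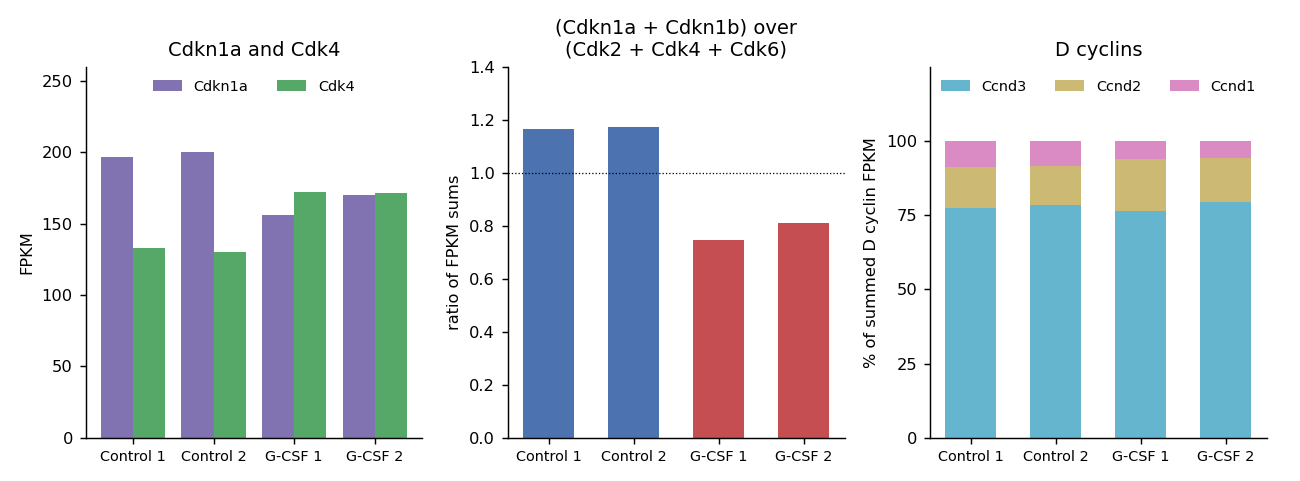
Left, FPKM of *Cdkn1a* and *Cdk4* in each library; middle, the ratio of the summed inhibitor FPKM to the summed kinase FPKM, with a dotted line at 1; right, the share of each D cyclin in the summed D cyclin FPKM. The ratio, which counts only *Cdkn1a* and *Cdkn1b* as inhibitors, lies above 1 in both Control libraries and below 1 in both G-CSF libraries. *Ccnd3* holds most of the D cyclin FPKM in every library.

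Several of the 10 genes overlap a gene on the opposite strand, and the authors' strand setting for counting is not given in the sources used here. Reads from the shared stretches could therefore not be told apart. *Cdk4* overlaps *Tspan31*, which encodes a tetraspanin, and 28.7% of the 75-base windows of its longest RefSeq transcript also occur, on the other strand, in transcripts of *Tspan31*. *Tspan31* stood at 49.1 and 49.1 FPKM in the Control libraries, against 61.9 and 61.4 FPKM in the G-CSF libraries, a change of 0.33 on the log2 scale with a standard error of 0.0412 and an adjusted p of 0.0146 (limma). It thus rose beside *Cdk4*, and the ratio of *Cdk4* to *Tspan31* was 2.68 ± 0.0342 in Control and 2.78 ± 0.0136 with G-CSF (SD, n = 2 each). *Ccnd1* shares 26.1% of its windows with *Oraov1* (LTO1), which stood at 10.3 and 9.66 FPKM in the Control libraries, against 7.89 and 8.66 FPKM in the G-CSF libraries. *Oraov1* was lower in both G-CSF libraries but did not pass the test (log2 fold change -0.27, adjusted p = 0.0757 from limma). The neighbour of *Ccnd3*, *Bysl*, had groups that overlapped (log2 fold change 0.02, adjusted p = 0.857), and that of *Ccne2*, *Ints8*, lay higher with G-CSF (log2 fold change 0.23, adjusted p = 0.0669 from limma). Windows were shared at 14.5% for *Ccnd3* and *Ccne2*, at 4.8% for *Ccnd2*, at 1.0% for *Cdkn1a* and at 0.6% for *Cdk6*, and no window of *Ccne1*, *Cdk2* or *Cdkn1b* was shared.

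**Figure D4:**
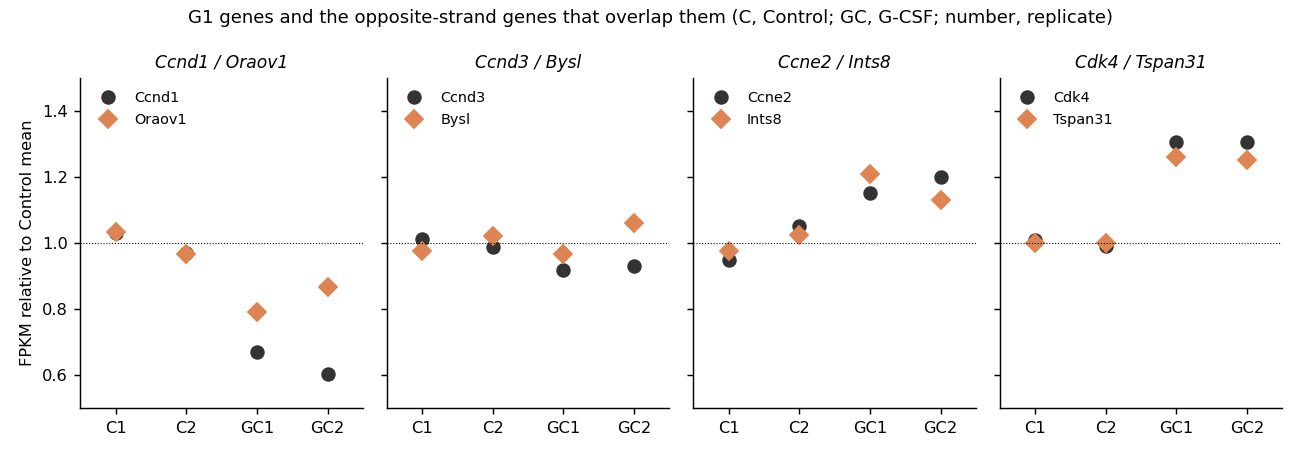
FPKM relative to the Control mean of the same gene, in each library, for *Ccnd1*, *Ccnd3*, *Ccne2* and *Cdk4* (black circles) and for the opposite-strand gene that overlaps each (orange diamonds), with the axis running from 0.5 to 1.5. *Tspan31* moves with *Cdk4*, and *Oraov1* lies lower with G-CSF but less so than *Ccnd1*.

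Around the 10 genes, the other genes of the G1/S transition, the E2F targets of S phase and the genes of G2 and M phase were followed as lists, each without the 10 genes. The lists were chosen with earlier results of these data known, so their changes describe these data and are not separate support. The paper had already reported cell cycle and DNA replication among the pathways activated with G-CSF in its RNA sequencing. Of 30 other G1/S genes tested, 9 rose and 21 did not pass the test. The list's median log2 fold change was 0.15, against 0.01 over all genes tested, of which 10.9% rose and 9.27% fell. Among them, *Tfdp1*, which encodes the dimer partner of E2F factors, rose from 97.8 ± 0.620 to 126 ± 1.92 FPKM (SD, n = 2 each; adjusted p = 0.0132 from limma). *Cks1b*, which encodes a small subunit that binds the kinases, rose from 88.6 ± 2.45 to 116 ± 5.10 FPKM (SD, n = 2 each; adjusted p = 0.0151 from limma). *Ccna2*, the cyclin of S phase, and *E2f8*, a repressor of the E2F family, rose by 0.28 and 0.32 on the log2 scale (adjusted p = 0.0174 and 0.0175 from limma).

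Most of the E2F targets rose. Of 22 genes, 19 passed the test upward and 3 did not pass, with a median log2 fold change of 0.35. *Mybl2*, a transcription factor of the dividing cell, stood at 21.6 and 20.7 FPKM in the Control libraries, against 31.5 and 31.6 FPKM in the G-CSF libraries (adjusted p = 0.0103 from limma). *Rrm2*, a subunit of ribonucleotide reductase, stood at 94.5 and 92.2 FPKM in the Control libraries, against 131.7 and 126 FPKM in the G-CSF libraries (adjusted p = 0.0108 from limma). *Uhrf1* and the helicase subunit *Mcm5* rose by 0.39 and 0.37 on the log2 scale. Of 14 genes of G2 and M phase, 13 rose and 1 did not pass, with a median of 0.36, among them the kinases *Aurka* (0.46) and *Plk1* (0.45), the spindle factor *Tpx2* (0.37) and the mitotic cyclin *Ccnb1* (0.40). The 10 genes themselves had a median of 0.10, with 1 called higher and 2 called lower.

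*Cdkn1a* is a target of p53, so other p53 targets were set beside it. Of 16 tested, 4 fell and 12 did not pass, while 9.27% of all genes tested fell. A log2 fold change above 0 was found in 4 of the 16, and in 5946 of all 11717 genes tested. The list's median was -0.14. *Btg2*, an anti-proliferative gene, stood at 31.0 and 31.1 FPKM in the Control libraries, against 21.0 and 21.6 FPKM in the G-CSF libraries, a change of -0.54 on the log2 scale (adjusted p = 0.0103 from limma). *Plk2* (-0.61), *Trp53inp1* (-0.34) and *Sesn2* (-0.31) were the other 3 genes that fell (adjusted p = 0.0343, 0.0388 and 0.0231 from limma). Of the 12 that did not pass, the groups overlapped in *Mdm2*, *Ccng1*, *Bax*, *Sesn1*, *Eda2r*, *Pmaip1* and *Tnfrsf10b*. *Bbc3*, *Phlda3* and *Zmat3* lay lower in both G-CSF libraries, and *Aen* and *Tigar* lay higher in both.

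The calls in these lists rest on the same settings as those of the 10 genes. With the trend left out, or with any 1 of the 4 libraries left out, limma called 0 genes of the 4 lists. In those fits an unadjusted p under 0.05 was found, with the higher level under G-CSF, for 10 to 13 of 30 other G1/S genes, 19 to 21 of 22 E2F targets and 13 to 14 of 14 genes of G2 and M phase, against 14.2% to 17.7% of all genes. With the lower level under G-CSF it was found for 4 to 5 of 16 p53 targets, against 12.2% to 16.7% of all genes. Under the other settings, between 8 and 11 of the other G1/S genes, 17 and 22 of the E2F targets and 11 and 14 of the G2 and M phase genes rose, and 2 to 5 of the p53 targets fell. *Plk2* and *Trp53inp1* were the 2 lost when genes under 0.5 FPKM were kept in. Among the 10 genes, between 3 and 5 had an unadjusted p under 0.05 in those fits, in either direction, against 26.6% to 34.4% of all genes, which is near the background.

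**Figure D5:**
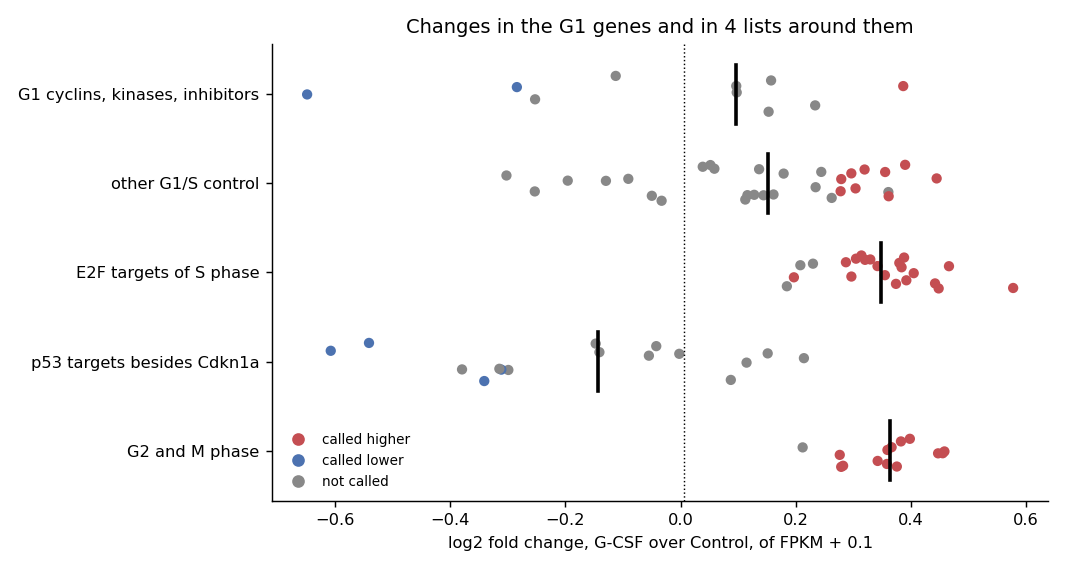
Log2 fold change (G-CSF over Control, of FPKM + 0.1) of the 10 G1 genes and of the genes tested in 4 lists, 1 point a gene, coloured by call, with the median of each list as a black line and that of all genes tested as a dotted line. The E2F targets and the genes of G2 and M phase all lie to the right of 0, while the 10 genes lie on both sides.

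The genes whose pattern over the 4 libraries lay nearest to that of *Cdk4* were *Ptcd3*, *Mcm5* and *Vars*, with Euclidean distances of 0.02, 0.0255 and 0.0278 between centred log2 values. *Cdk4* itself lay 0.387 from its own mean on this scale, and 362 genes lay within 0.1 of it. Those nearest to *Ccnd1* were *Adpgk* (0.0282), *Zmynd15* (0.0333) and *Lrp4* (0.0352), against 0.66 for *Ccnd1* from its own mean, and 25 genes lay within 0.1. With 4 libraries, such likeness says little more than that the genes moved by a like amount.

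Markers of several cell types moved with the groups, while of all genes tested 10.9% rose and 9.27% fell. All 5 markers of neutrophil precursors (*Elane*, *Prtn3*, *Mpo*, *Ctsg* and *Ms4a3*) rose, and their summed level was 838 to 965 FPKM in Control and 2111 to 2246 FPKM with G-CSF. Of 6 markers of mature neutrophils tested, 4 fell (*Camp*, *Retnlg*, *Ltf* and *Mmp9*). *Mmp8*, whose groups overlapped, and *Cxcr2* did not pass the test (adjusted p = 0.509 and 0.0676 from limma). The sum of the 6 was 4094 to 4289 FPKM in Control and 1827 to 2212 FPKM with G-CSF. *Ltf* was the largest part of it, with means of 2170 and 877 FPKM. Of 7 dendritic cell markers tested, 3 fell (*H2-Aa*, *H2-Ab1* and *Cd74*), with sums of 2747 to 3207 and 1444 to 1794 FPKM. *Cd74* alone made up most of these sums, with means of 1878 and 1047 FPKM. *Itgax*, *Flt3*, *Ccr7* and *Zbtb46* did not pass the test. By flow cytometry, the paper found no effect of G-CSF on the percentages of dendritic cells, macrophages or all MDSCs. Within the MDSCs it found a higher proportion of the monocytic type and a lower proportion of the polymorphonuclear type. Of 9 markers of monocytes and macrophages, 1 rose and 4 fell, with sums of 1926 to 2001 and 1724 to 1808 FPKM. Among the markers of the labelled cells, *Itgam* fell (log2 fold change -0.35, adjusted p = 0.0146 from limma), while *Ly6c1* and *Ly6c2* did not pass the test. Markers of eosinophils (204.5 to 479 FPKM) and of mast cells and basophils (56.8 to 89.0 FPKM) were also lower with G-CSF, with 3 of 4 falling in each list. The sums of the T and NK cell markers (*Ncr1* at 0), B cell markers and erythroid markers stayed at 5.36 FPKM or less. The part of these shifts in the values of *Ccnd1*, *Cdk4* and *Cdkn1a* was not tested, and in RNA of whole cultures fewer cells of a type and less RNA per cell cannot be told apart.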

How the data were processed

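The authors deposited 1 table per library with a value for each gene name. The deposited values were taken as FPKM, because they were not whole numbers and the submitters' processing notes name Cufflinks 2.2.1, beside TopHat2 2.0.13, Bowtie2 2.2.3, SAMtools 0.1.19 and mm10. The libraries were stranded mRNA libraries read over 75 bases from a single end. The annotation and strand setting are not given in the sources used here.

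FPKM were not rescaled. Values were compared on log2(FPKM + 0.1) for genes with a mean of at least 0.5 FPKM over the 4 libraries, with limma 3.58.1 in R 4.3.3 (lmFit, eBayes with trend = TRUE, G-CSF against Control, two-sided), with Benjamini-Hochberg adjustment across the genes that passed the filter. The pseudocount draws fold changes of low genes toward 0. The threshold for a call was an adjusted p of 0.05. Reads were estimated from the steps of low FPKM in transcripts with a length offset of 210 bases. The offset and the depth of each library were chosen to give the highest share of low values within 0.05 of whole reads. That share was 66.4% to 68.1%, against 10.0% by chance at a depth not chosen in this way. Estimates for genes with several transcripts are approximate. Positions and lengths came from GENCODE M21 (GRCm38), and promoters from RefSeq.

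The 10 genes and the lists were chosen with earlier results of these data known. Genes were named by a rule: the 10 genes, in each pathway list up to 4 genes with the smallest p, the 3 nearest patterns, overlapping genes and the markers. Genes named outside this rule were chosen after their values were seen. The alternatives were other scaling, filters, pseudocounts, voom on estimated reads, limma without trend, the replicate number as a block, and fits without 1 of the libraries; those for the pathway lists were added after the values were seen. Python 3.11.15, pandas 2.3.3, numpy 2.4.6 and matplotlib 3.10.9 were used.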

Additional observations from a re-analysis of the deposited data

How the results depend on the processing

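All 140 values of the 10 genes under the alternatives (100 with all libraries and 40 with 1 left out) kept their direction. Without limma's trend, none of the 10 genes was called (0 higher, 0 lower; 4 at an unadjusted p under 0.05, against 34.4% of all genes), with log2 fold changes of -0.65 for *Ccnd1*, 0.39 for *Cdk4* and -0.28 for *Cdkn1a*, and 27 of all genes were called (18 higher, 9 lower, 27 with a fold change over 2) in place of 2367. With 1 library left out, 32 to 50 of all genes were called (18 to 27 higher, 14 to 25 lower, 32 to 47 with a fold change over 2), and 0 of the 10 genes; the lone library is then assumed to vary like the others. The log2 fold changes ranged from -0.72 to -0.57 for *Ccnd1*, 0.37 to 0.40 for *Cdk4* and -0.35 to -0.22 for *Cdkn1a*. Genes called with a fold change over 2 numbered 138, but 82 with a mean of at least 2 FPKM required and 66 with a pseudocount of 1 FPKM. With voom on estimated reads, 2 of the 10 genes were higher, since *Cdk6* passed with a log2 fold change of 0.17. Deviations from the group means correlated weakly between libraries of like replicate number (r = 0.147 across 11717 genes), but the labels give no shared batch or animal; with the replicate number as a block, *Cdkn1b* passed (-0.25, adjusted p = 0.0366 from limma) and 3061 genes were called. The difference in the share of *Ccnd3* among the D cyclins, -0.10 percentage points, ranged from -1.55 to 1.36 with 1 library left out and turned to 0.318 without Control replicate 2 and 1.36 without G-CSF replicate 1. The cause of these shifts was not tested. Depth (335 to 6234 estimated reads per value) and the spread between 2 libraries a group both limit the 10 values.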

Other observations

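Other inhibitors and pocket proteins of the same step, chosen after their values were seen, stood as follows. *Cdkn2c*, which encodes an inhibitor of Cdk4 and Cdk6, had Control values of 11.1 ± 0.831 FPKM and G-CSF values of 9.31 ± 0.552 FPKM (SD, n = 2 each), a change of -0.25 on the log2 scale (adjusted p = 0.0961 from limma). *Cdkn2d*, of the same family, was the more abundant, with 42.5 ± 1.42 and 44.3 ± 0.115 FPKM (SD, n = 2 each), a change of 0.06 on the log2 scale (adjusted p = 0.414 from limma). The pocket protein genes *Rb1* (log2 fold change -0.13, adjusted p = 0.264), *Rbl2* (-0.09, adjusted p = 0.297) and *Rbl1* (0.23, adjusted p = 0.0501 from limma) did not pass the test.

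The promoter letters were also counted over those genes tested that had a promoter window, a count chosen after the values were seen. Of 426 genes with at least 1 of the E2F-type sites in a window, 21.8% were called higher and 3.76% lower, against 10.5% and 9.54% of the 8533 genes with none. With CACGTG, the shares were 12.4% higher and 8.96% lower among 1082 genes, against 10.8% and 9.31% among 7877 genes with none, and 7.44% higher and 11.6% lower among the 121 genes with at least 2 in a window. Of the 4 genes tested with 4 or more CACGTG in a window, *Cdk4* was the one called (log2 fold change 0.39); *Lamp1* (-0.11), *Mfsd1* (-0.10) and *Zmym6* (-0.08) were not. These counts were not tested, and promoters differ in base composition.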
